A study of Mus musculus with 7 samples.

Results

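The genes described here are 51 interferon-induced and major histocompatibility complex (MHC) class I genes of the mouse, followed in polyadenylated RNA from the left ventricle of the embryonic heart. They were listed by name, in a list drawn up with earlier results of these libraries known, and were then selected on their read counts: a gene was analysed if it had at least 10 counts in at least 2 of the 7 libraries. Of the 51 listed genes, 49 had a row in the count table of 23337 gene symbols and all 49 met that minimum. Ifi27 and Helz2 had no row under those symbols. The 49 comprise 16 antiviral genes, 7 interferon-inducible GTPases, 15 regulators of the response and 11 genes of antigen presentation. The members closest to the minimum were Zbp1, with 10 or more counts in 5 libraries, all of them controls, and Psmb9, with 10 or more in 6.

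The ventricles were dissected at embryonic day 12.5, and the mothers had been given tamoxifen on the day before. All 7 embryos carried CreERT2, a recombinase that tamoxifen switches on, inserted at Gt(ROSA)26Sor, a locus active in nearly all cell types, so that the Cre is not restricted to heart muscle. The 5 controls had the genotype Tbx5+/+ and the 2 embryos labelled mutant had Tbx5flox/flox, loxP-flanked alleles of the gene for the T-box transcription factor TBX5. The comparison of the design asks which ventricular transcripts depend on Tbx5. Controls therefore share the Cre and the tamoxifen with the mutants, but have no floxed allele. Neither litter nor sex nor batch is named in the labels, and the p-values measure the spread between these samples only, part of which may be technical.

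Interferons are secreted proteins that cells release on sensing viral or misplaced nucleic acid. Their receptors act through JAK kinases to activate transcription factors that bind the interferon-stimulated response element (ISRE) or the gamma-activated site (GAS) before their target genes. Among those genes are inhibitors of viral replication, GTPases that attack vacuoles holding microbes, sensors and transcription factors that feed back on the response, and the machinery that loads peptides onto MHC class I molecules for display to T cells. Many of these genes are also transcribed at a low level without infection, in macrophages among other cells.

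Library totals ran from 20268208 to 24440806 counts. Values are CPM (reads of the gene per 1e6 counts of the library, with TMM scaling), and the genotype test was edgeR's quasi-likelihood test over 14691 genes with Benjamini-Hochberg adjustment, called at an adjusted p under 0.05. Markers of cardiomyocytes summed to between 48800 and 60300 CPM per library, as the labelled heart tissue requires. Tbx5 itself did not fall with the mutant label (76.8 ± 13.7 CPM in controls, SD, n = 5, against 104 ± 14.1, n = 2; log2 fold change 0.43, SE 0.15, edgeR adjusted p = 0.181), and every direction below is between libraries by label. Xist stood at 311 to 509 CPM in 5 libraries and at 0.689 and 1.09 CPM in control replicates 1 and 3, so both libraries labelled mutant were on the high side.

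The regulatory sequences of the members were examined first. In RefSeq promoters of the GRCm38.p6 build, the 250 bases before each transcript start were searched on both strands for the ISRE-type motif GAAANNGAAA, where N is any base. It occurred in 978 of 32851 promoter entries of all genes (2.98%), where a gene can have more than 1 entry. Counted by gene, it occurred before 317 of 10307 tested genes with an entry (3.08%). Among the members with an entry it occurred before 16 of 41 (39.0%). By class these members were 5 of 15 antiviral genes, 6 of 6 GTPases, 2 of 10 regulators and 3 of 10 antigen presentation genes. The GAS-type motif TTCNNNGAA occurred in 7.02% of all promoter entries, before 7.21% of the tested genes and before 7 of the 41 members (17.1%). The motifs can overlap: in Bst2 the GAS-type match shared bases with an ISRE-type match.

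Shown next are the 200 bases before the start, 5′ to 3′ on the strand of the gene, with every ISRE-type match on either strand in capitals. The first 4 are classical responders, B2m and H2-T22 are antigen presentation genes, and Lgals3bp and Uba7 are members called lower that had no match in this window. Where a gene had more than 1 entry the one with more matches is printed.
Isg15 (chr4:156200819-156201018): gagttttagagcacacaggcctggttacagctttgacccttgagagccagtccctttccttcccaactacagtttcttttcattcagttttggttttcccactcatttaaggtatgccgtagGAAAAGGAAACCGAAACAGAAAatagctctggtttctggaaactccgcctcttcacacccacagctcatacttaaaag
Ifit1 (chr19:34640689-34640888): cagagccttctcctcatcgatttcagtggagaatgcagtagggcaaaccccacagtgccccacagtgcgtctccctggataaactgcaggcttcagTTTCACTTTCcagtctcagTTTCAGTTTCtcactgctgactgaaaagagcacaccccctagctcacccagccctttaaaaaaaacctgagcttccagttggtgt
Bst2 (chr8:71537473-71537672): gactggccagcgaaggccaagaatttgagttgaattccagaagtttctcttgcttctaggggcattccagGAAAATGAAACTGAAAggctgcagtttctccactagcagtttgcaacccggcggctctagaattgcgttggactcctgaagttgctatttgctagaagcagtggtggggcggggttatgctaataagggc
Gbp3 (chr3:142559844-142560043): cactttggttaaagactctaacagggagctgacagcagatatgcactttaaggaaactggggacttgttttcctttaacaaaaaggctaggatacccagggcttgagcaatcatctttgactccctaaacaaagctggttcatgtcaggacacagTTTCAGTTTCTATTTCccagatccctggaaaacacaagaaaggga
B2m (chr2:122147487-122147686): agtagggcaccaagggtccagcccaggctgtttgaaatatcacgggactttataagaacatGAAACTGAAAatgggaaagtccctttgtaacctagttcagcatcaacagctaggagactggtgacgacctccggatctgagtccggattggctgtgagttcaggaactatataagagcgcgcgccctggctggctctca
H2-T22 (chr17:36042743-36042942): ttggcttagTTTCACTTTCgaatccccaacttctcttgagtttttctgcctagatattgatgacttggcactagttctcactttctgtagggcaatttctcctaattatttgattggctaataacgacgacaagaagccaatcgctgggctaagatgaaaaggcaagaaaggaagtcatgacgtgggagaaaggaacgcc
Lgals3bp (chr11:118401960-118402159): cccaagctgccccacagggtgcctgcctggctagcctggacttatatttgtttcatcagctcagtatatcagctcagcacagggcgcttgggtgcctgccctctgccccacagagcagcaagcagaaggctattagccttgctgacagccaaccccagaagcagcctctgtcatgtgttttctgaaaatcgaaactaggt
Uba7 (chr9:107975367-107975566): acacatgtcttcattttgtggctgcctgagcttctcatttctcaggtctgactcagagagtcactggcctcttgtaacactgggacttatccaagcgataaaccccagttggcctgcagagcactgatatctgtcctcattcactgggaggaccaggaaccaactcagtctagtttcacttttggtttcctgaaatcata

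Isg15 carried 3 overlapping matches at 78 to 57 bases before the start, the densest run among the printed promoters. Bst2 and Gbp3 carried 2 overlapping matches each, and Ifit1 2 separate ones. The matches of the GTPases lay close to the start, the farthest beginning 64 bases before it, in Irgm2. In H2-T22 the match lay farther out, at 191 to 182 bases, and in B2m at 139 to 130. Among the members with a promoter entry, the difference between genotypes did not divide them by this motif. The median log2 fold change was -0.71 for the 16 with a match and -0.58 for those without. Members with no entry, among them Iigp1 and Zbp1, are not in these medians. Among 301 genes outside the list with a match, the median was -0.04 and 6 were called, where 1.36% of all genes tested were called in either direction. A match is a description of letters and not a bound site.

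**Figure D1:**
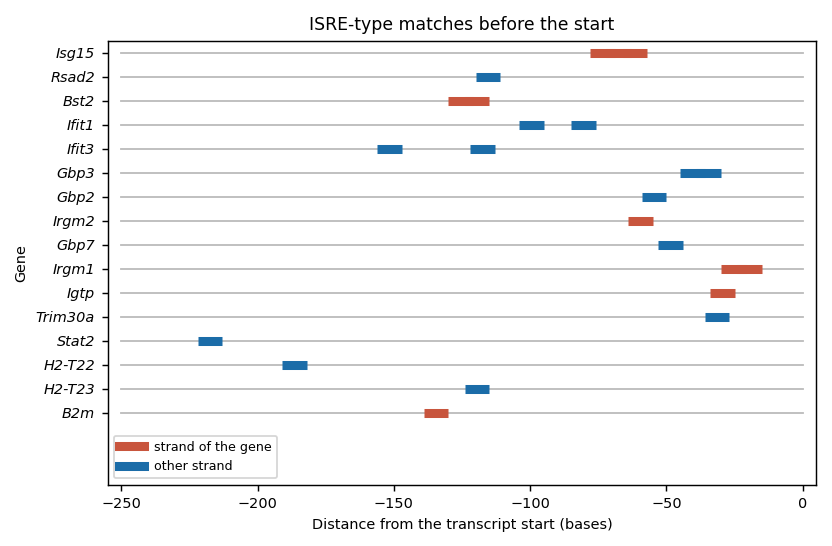
Position of each ISRE-type match in the 250 bases before the RefSeq transcript start, 1 line for each of the 16 members with a match. The x axis is the distance from the start in bases and colour gives the strand; the 6 GTPases with a promoter entry have their matches within 64 bases of the start.

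As a group the members had lower values in both libraries labelled mutant. Log2 fold changes, given as mutant minus control, were negative for 46 of 49, and their median was -0.65, while over all 14691 genes 7552 were negative and the median was -0.008. The test called 4 members lower, Iigp1, Lgals3bp, Uba7 and H2-T22, 1 from each class, where 0.899% of all genes were called lower. It called 0 members higher, where 0.463% of all genes were called higher, and DESeq2 and limma-voom also called 0 higher. DESeq2 called 10 members lower, the same 4 and Oasl2, Bst2, Ifitm3, Gbp3, Parp14 and H2-D1. It called 5.35% of all genes, counting both directions. With limma-voom 0 members were called lower (22 lower at an unadjusted p under 0.05), where 0.776% of all genes were called in either direction. At an unadjusted edgeR p under 0.05, 25 members were lower, where 9.52% of all genes were, and 1, Ifit2, was higher, where 8.09% of all genes were. Without mutant replicate 1 the test called 1 member, without mutant replicate 2 it called 0 and the median was -0.35; without control replicate 1 or 2 it called 1 or 2. In the 5 libraries with high Xist, or with Xist as a covariate, 1 member, Iigp1, was called. Because the list was drawn up with earlier results of the same libraries known, these counts describe it and do not test it. The 46 and the 25 include Zbp1, which met the count minimum in its controls alone.

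Both libraries labelled mutant lay below every control for 18 members, where 10.4% of all genes did so. These were Lgals3bp, Oasl2, Xaf1, Ifitm3, Iigp1, Gbp2, Gbp3, Irf1, Irf9, Uba7, Parp14, Zbp1, Psmb8, Tap1, Tap2, H2-D1, H2-T22 and H2-T23. Zbp1 met the count minimum in its controls alone, so its place among the 18 was set by its selection. Both lay above every control for 1 member, Ifit2, where 9.73% of all genes did so. For the other members the groups overlapped. Mutant replicate 2 alone lay outside the control range for 53.7% of all genes, and with mutant replicate 1 left out 42 members were outside. Leaving out mutant replicate 1 moved the log2 fold change by over 1.5 times for 23 of 49 members, and leaving out mutant replicate 2 did so for 29.

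**Figure D2:**
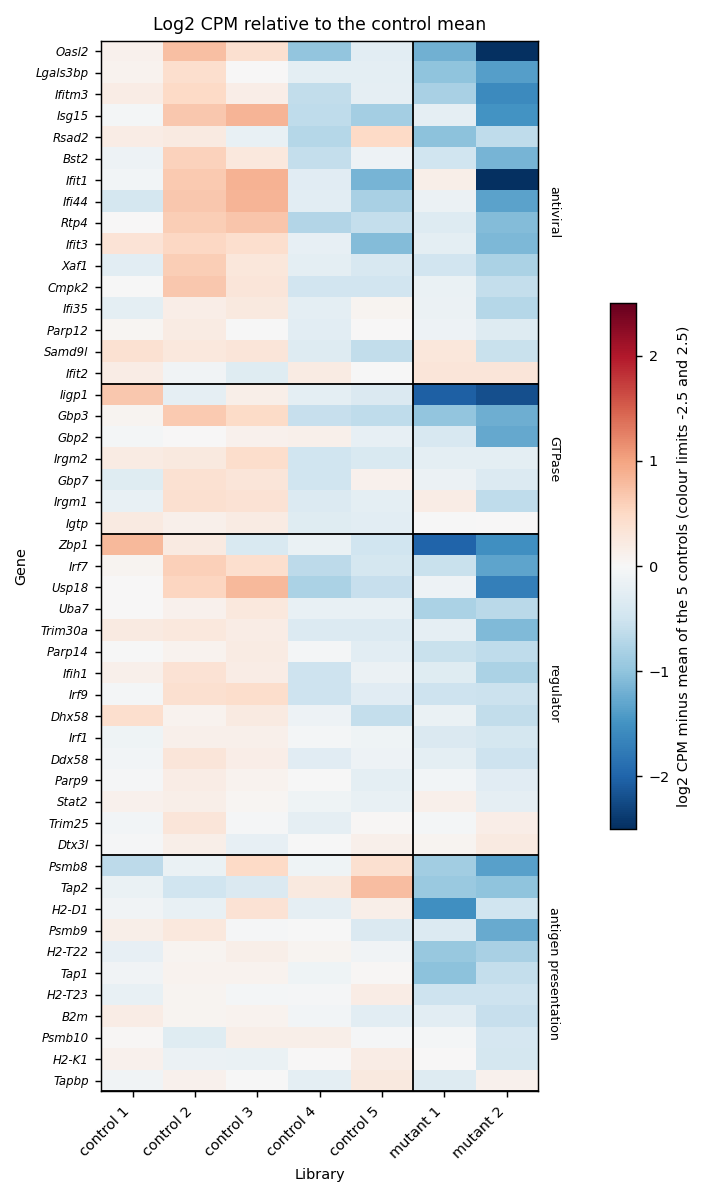
Each row is 1 of the 49 members, ordered within its class by log2 fold change, and each column 1 library; colour is log2 CPM minus the mean of the 5 controls. Mutant replicate 2 is blue in most rows, control replicates 2 and 3 are red in most antiviral and GTPase rows, and mutant replicate 1 is mixed.

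**Figure D3:**
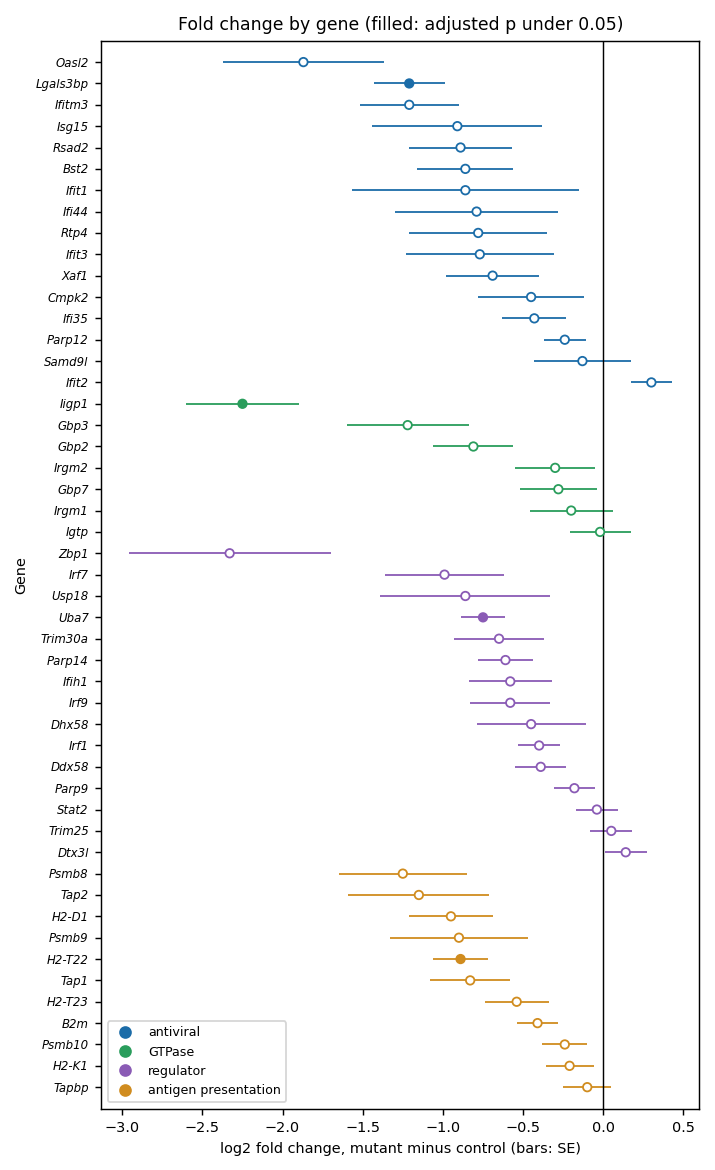
Log2 fold change of each member with its SE as a bar, coloured by class, filled where the edgeR adjusted p was under 0.05. The 4 filled points are Lgals3bp, Iigp1, Uba7 and H2-T22, and 3 members, Ifit2, Trim25 and Dtx3l, lie above 0.

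The ligands that start the response were hardly measured. Of 21 interferon genes listed, 20 had 0 counts in every library, among them Ifnb1, Ifng and all Ifna genes of the list; at these totals, 3 counts is the limit that a count of 0 allows in a library. The exception was Ifnz, with at most 2 counts in a library. Receptors, kinases and their feedback inhibitors were well covered: all 14 were tested, 0 were called by edgeR or limma-voom, and their median log2 fold change was -0.00059. Without adjustment 1 was lower and 2 were higher in edgeR. DESeq2 called 1, the interferon gamma receptor chain Ifngr2, higher.

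Ifnar1, the first chain of the type I receptor, stood at 65.2 ± 4.62 CPM in controls and 68.4 ± 8.28 in the libraries labelled mutant (log2 fold change 0.07, SE 0.10, edgeR adjusted p = 0.760). Ifngr2 stood at 103 ± 6.57 and 125 ± 2.25 CPM (0.28, SE 0.08, adjusted p = 0.126 in edgeR). The Ifnar1 groups overlapped, while both mutants were above every control for Ifngr2. Jak1, the kinase shared by both receptors, stood at 158 ± 11.4 and 163 ± 4.55 CPM, and Ptpn11, a phosphatase of the pathway and the most abundant gene of this list by CPM, at 197 ± 8.68 and 207 ± 18.7. None of the remaining receptor chains and kinases was called, with Ifnar2 at 26.5 ± 1.76 and 25 ± 0.953 CPM, Ifngr1 at 30.3 ± 3.01 and 26.6 ± 3.69, Jak2 at 36.4 ± 2.58 and 35.3 ± 2.78 and Tyk2 at 27.9 ± 2.04 and 30.4 ± 2.19. The shared chain Il10rb stood at 39.8 ± 2.20 and 43.5 ± 2.09 CPM and the lambda receptor chain Ifnlr1, matched by its older symbol, at 0.801 ± 0.122 and 1.31 ± 0.378. The inhibitors Socs1, Socs3 and Ptpn6 stood at 3.01 ± 0.724 and 2.03 ± 0.638, 4.77 ± 1.26 and 4.42 ± 0.75, and 6.36 ± 0.911 and 4.53 ± 1.02 CPM.

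The wider list of nucleic acid sensing genes, not all of them sensors, gave 0 calls among 18 tested genes in edgeR and limma-voom. In edgeR 2 were lower and 0 higher without adjustment, and DESeq2 called 1, Ifi204, lower. Ifi204, a DNA sensor of the HIN-200 family, had 2.18 ± 1.11 CPM in controls and 0.544 ± 0.212 in the libraries labelled mutant (log2 fold change -2.0, SE 0.58, edgeR adjusted p = 0.117). The most abundant genes of that list by CPM had log2 fold changes between -0.07 and 0.08: Irf3, the factor that the sensors activate, stood at 45.1 ± 2.58 and 45.5 ± 2.33 CPM, the nucleotide hydrolase gene Samhd1 at 46.8 ± 2.68 and 49.5 ± 4.25, and the ribonuclease H2 subunit Rnaseh2b at 65.9 ± 7.88 and 62.8 ± 9.37. Ifih1 and Ddx58, the RNA sensors MDA5 and RIG-I, are members. Ddx58 had 21.8, 28.1, 25.4, 18.8 and 20.7 CPM in the controls and 19.2 and 15.8 in the mutants. Ifih1 went from 4.86 ± 1.09 to 3.26 ± 0.78 CPM. Neither Ddx58 (adjusted p = 0.238 in edgeR) nor Ifih1 (adjusted p = 0.280) was called, and in both mutant replicate 1 lay inside the control range.

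Antiviral effectors were the class with the widest spread among the controls. Of 16 genes, 15 had a negative log2 fold change (median -0.79), 6 were lower at an unadjusted edgeR p under 0.05, and 1, Lgals3bp, was called. Lgals3bp, a secreted glycoprotein that binds galectins, is on chromosome 11 from 118392747 to 118401959. It had 11.8, 15.0, 11.2, 9.40 and 9.40 CPM in the controls and 5.55 and 4.29 in the mutants. Every control lay above both mutants, and Lgals3bp fell by 1.21 on the log2 scale (SE 0.22, edgeR adjusted p = 0.0274). The call was lost without control replicate 1 (adjusted p = 0.071) and without mutant replicate 2 (0.269), and in limma-voom (0.0538).

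Oasl2, a relative of the oligoadenylate synthetases that binds double-stranded RNA, had 266, 377, 309, 108 and 219 counts in the controls and 92 and 41 in the mutants. The groups did not overlap, but the lowest control stood only just above the higher mutant, and the difference was not called (log2 fold change -1.87, SE 0.50, edgeR adjusted p = 0.105). It was called without control replicate 4, as was Ifitm3, a membrane protein that blocks viral entry. Ifitm3 had 32.9, 40.5, 32.2, 18.7 and 24.7 CPM against 16.4 and 9.49 (-1.21, SE 0.31, adjusted p = 0.0957 with all libraries). Bst2, which tethers budding virions to the cell, had 24.2, 39.5, 31.5, 17.5 and 23.9 CPM against 18.6 and 11.6. Here mutant replicate 1 lay above control replicate 4, and the adjusted p was 0.196 in edgeR (log2 fold change -0.86, SE 0.30).

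For the canonical type I responders Ifit1 and Isg15 the range among the controls was wider than the log2 fold change. The same held for 85.3% of all genes tested. Ifit1, which binds foreign RNA caps, had 3.23, 5.36, 6.27, 2.77 and 1.46 CPM in the controls, a 4.28-fold range, and 3.77 and 0.481 in the mutants. Isg15, the ubiquitin-like modifier, had 7.23, 12, 13.6, 4.75 and 4.11 CPM in the controls, a 3.32-fold range, and 6.34 and 2.58 in the mutants. In both genes control replicates 2 and 3 were highest, mutant replicate 1 lay among the controls and mutant replicate 2 was lowest. Neither Ifit1 (log2 fold change -0.86, SE 0.71, edgeR adjusted p = 0.570) nor Isg15 (-0.91, SE 0.53, adjusted p = 0.414) was called. Without mutant replicate 2 the log2 fold changes were -0.0053 for Ifit1 and -0.38 for Isg15, and without mutant replicate 1 they were -2.97 and -1.69. Parp12, an ADP-ribosyltransferase that inhibits viral translation, was steadier, with 26.7, 29.7, 25.7, 21.6 and 26.0 CPM in the controls and 23.6 and 20.5 in the mutants (log2 fold change -0.24, SE 0.13, edgeR adjusted p = 0.362). The order seen in Isg15 held at both ends for Ifi44, with 7.31 and 8.27 CPM in control replicates 2 and 3, 4.11 in mutant replicate 1 and 1.75 in mutant replicate 2.

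Ifit2 went the other way from its neighbours on chromosome 19. It had 25.1, 20.7, 17.8, 25.2 and 21.9 CPM in the controls and 27.3 and 27.2 in the mutants, so both mutants were above every control, by little (log2 fold change 0.30, SE 0.13, edgeR adjusted p = 0.281). Control replicates 2 and 3, the highest for Ifit1, were the lowest for Ifit2. Ifit3, the third gene of the cluster among the members, had 2.06 ± 0.798 CPM in controls and 1.21 ± 0.533 in the libraries labelled mutant. Members of this family are similar in sequence, and how reads with several matches were counted is not given in the sources used here.

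**Figure D4:**
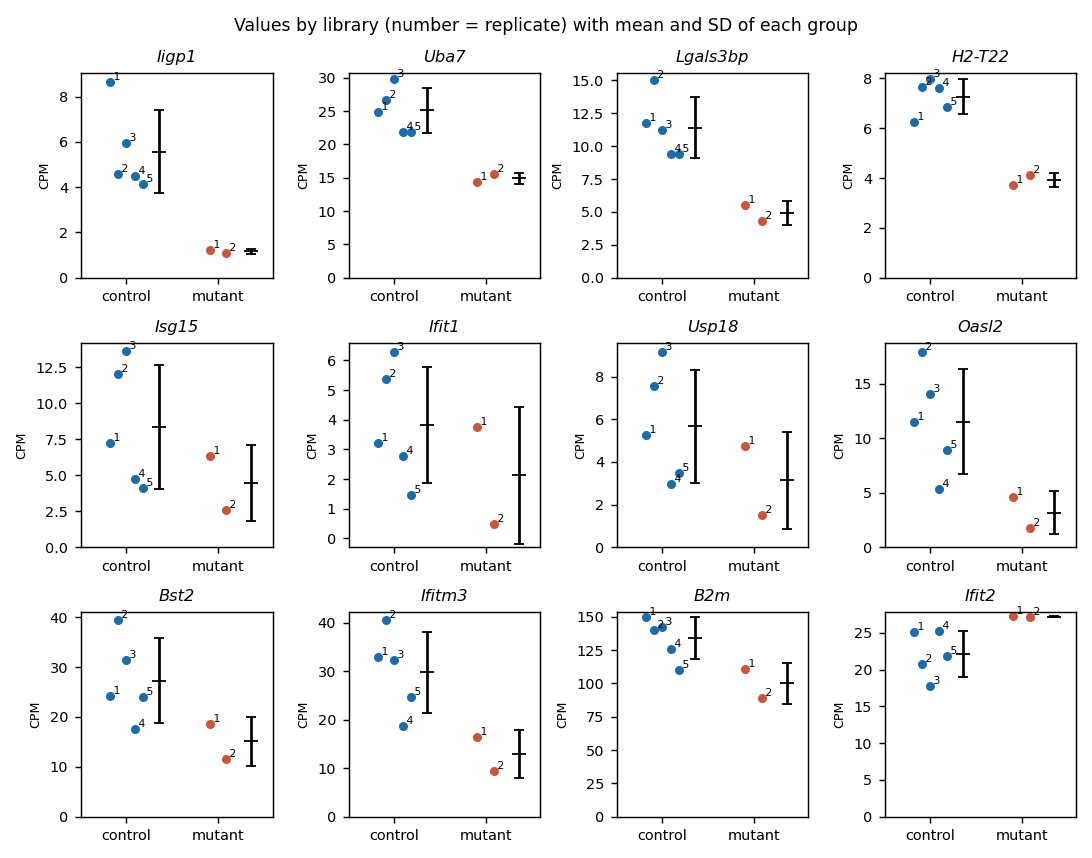
CPM of 12 members in each library (points, numbered by replicate; blue controls, orange libraries labelled mutant) with the mean and SD of each group in black. In the top row, the 4 called genes, the groups do not overlap; for Isg15, Ifit1 and Usp18 mutant replicate 1 lies among the controls.

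The interferon-inducible GTPases included the member with the lowest adjusted p. Iigp1, an immunity-related GTPase that loads onto the vacuoles of intracellular parasites, had 8.65, 4.60, 5.95, 4.50 and 4.15 CPM in the controls and 1.24 and 1.09 in the mutants. The lowest control was above both mutants by more than the spread within the mutants, and Iigp1 fell by 2.25 on the log2 scale (SE 0.35, edgeR adjusted p = 0.015), from 5.57 ± 1.85 to 1.17 ± 0.103 CPM. The call was lost without mutant replicate 1 (adjusted p = 0.0509) or mutant replicate 2 (0.187), and in limma-voom (0.0516).

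All 7 GTPases were on the negative side, at a median log2 fold change of -0.30, and 3 were lower at an unadjusted edgeR p under 0.05. Gbp3 and Gbp2, guanylate-binding proteins, also had both mutants below every control. Gbp3 had 6.20, 9.35, 8.31, 3.91 and 3.78 CPM in the controls and 2.92 and 2.49 in the mutants (log2 fold change -1.22, SE 0.38, edgeR adjusted p = 0.140). The values of Gbp2 were 4.05, 4.22, 4.50, 4.55 and 3.62 CPM against 3.12 and 1.66 (-0.81, SE 0.25, adjusted p = 0.137), and it stood at -1.33 with mutant replicate 1 left out and at -0.41 with mutant replicate 2 left out. For Igtp, Irgm1, Irgm2 and Gbp7 the groups overlapped. Irgm1 and Irgm2 keep the effector GTPases off the cell's own membranes. Irgm1 had 12.6, 18.8, 18.5, 11.2 and 12.1 CPM in the controls and 16.3 and 9.23 in the mutants, 1 of which was inside the control range and 1 below it. Irgm2 had 9.47, 9.83, 11.2, 5.79 and 6.35 CPM against 6.94 and 6.91, and Gbp7 5.42, 8.69, 8.27, 4.70 and 7.20 against 6.05 and 5.25. In Irgm2 and Gbp7 both mutants lay above the lowest control. Igtp had 5.94 ± 1.06 CPM in controls and 5.85 ± 0.0771 in the libraries labelled mutant, with a log2 fold change of -0.02 (SE 0.19) that turned to 0.04 without control replicate 1 or 3. Guanylate-binding proteins share sequence with each other and with further family members, so reads may be divided between them.

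Among the 15 regulators, 13 had a negative log2 fold change (median -0.58), 9 were lower at an unadjusted edgeR p under 0.05 and 1, Uba7, was called. Uba7 encodes the activating enzyme that charges ISG15 for conjugation, and lies on chromosome 9 from 107975567 to 107984056. It had 24.9, 26.7, 29.9, 21.9 and 21.8 CPM in the controls and 14.3 and 15.5 in the mutants. Each control was well above both mutants, and Uba7 fell by 0.75 on the log2 scale (SE 0.14, edgeR adjusted p = 0.0324). That call did not survive the loss of control replicate 1 (adjusted p = 0.0791), control replicate 2 (0.0801), mutant replicate 1 (0.0875) or mutant replicate 2 (0.212), or limma-voom (0.0561).

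Usp18, the protease that removes ISG15 and also dampens the type I receptor, had 5.25, 7.55, 9.17, 2.97 and 3.46 CPM in the controls and 4.76 and 1.53 in the mutants. It followed Isg15, its substrate, in that control replicates 2 and 3 were highest and mutant replicate 2 lowest (log2 fold change -0.86, SE 0.53, edgeR adjusted p = 0.432). Of the members Uba7, Isg15 and Usp18, only Uba7 was called, and for Isg15 and Usp18 the groups overlapped. This covers no other gene of the ISG15 system.

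The transcription factors among the members were not called by edgeR, DESeq2 or limma-voom. Irf9, a DNA-binding factor of the type I response, had 22.4, 30.4, 31.5, 16.1 and 18.8 CPM in the controls and 16.0 and 15.9 in the mutants. Both mutants were below the lowest control, by little (log2 fold change -0.58, SE 0.25, edgeR adjusted p = 0.261). Irf1, which drives many class I and GTPase genes, had 12.4 ± 1.07 CPM in controls and 9.36 ± 0.362 in the libraries labelled mutant (-0.40, SE 0.13, adjusted p = 0.148). Irf7, which amplifies interferon transcription, had 5.64, 8.12, 7.22, 3.37 and 3.91 CPM in the controls and 3.62 and 2.1 in the mutants (-0.99, SE 0.37, adjusted p = 0.207 in edgeR). It showed the pattern of the antiviral genes, with control replicates 2 and 3 highest and mutant replicate 2 lowest. Stat2 had 24.2, 24.9, 23.3, 20.7 and 19.6 CPM against 24.7 and 19.1, with the mutants near the highest and just below the lowest control (-0.04, SE 0.13).

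Of the remaining regulators, Zbp1, a sensor of left-handed nucleic acid, had the lowest log2 fold change of any member. It had 1.25, 0.807, 0.500, 0.594 and 0.448 CPM in the controls and 0.0991 and 0.175 in the mutants (log2 fold change -2.33, SE 0.63, edgeR adjusted p = 0.097). Zbp1 passed the count minimum through its controls alone, so its direction was set by its selection. Parp14, a mono-ADP-ribosyltransferase, went from 7.86 ± 0.955 to 5.15 ± 0.222 CPM (-0.61, SE 0.17, adjusted p = 0.10 in edgeR). Its chromosomal neighbours Parp9 and Dtx3l, which act as a pair, gave -0.18 (SE 0.13) and 0.14 (SE 0.13) on the log2 scale. Trim25, a ubiquitin ligase for RIG-I, had 42.2, 55.0, 43.8, 38.2 and 45.3 CPM in the controls and 42.9 and 50.1 in the mutants, all within the control range. Trim30a, one of a group of similar Trim genes, had 6.46, 6.65, 6.27, 4.31 and 4.31 CPM against 4.66 and 2.49 (log2 fold change -0.65, SE 0.28, adjusted p = 0.265 in edgeR).

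Antigen presentation genes varied little among the controls. Their median range among the 5 controls was 0.45 on the log2 scale, against 1.17 for antiviral genes, 0.87 for GTPases, 0.58 for regulators and 0.38 for all genes tested; the difference between classes was not tested. All 11 had a negative log2 fold change (median -0.83), 7 were lower at an unadjusted edgeR p under 0.05, and for 6 both mutants lay below every control. The 1 call was H2-T22, a non-classical class I gene on chromosome 17 from 36037128 to 36042742. It had 6.24, 7.64, 7.99, 7.62 and 6.84 CPM in the controls and 3.72 and 4.11 in the mutants. The groups were far apart, and H2-T22 fell by 0.89 on the log2 scale (SE 0.17, edgeR adjusted p = 0.0324).

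The H2-T22 call was lost without control replicate 1 (edgeR adjusted p = 0.0541), 2 (0.0824) or 3 (0.0619), without mutant replicate 1 (0.09) or 2 (0.214), and in limma-voom (0.0547). The neighbouring row H2-T9 held nearly the same counts in each library, 140, 156, 172, 148, 166, 75 and 89 against 145, 161, 176, 154, 168, 75 and 94 for H2-T22. These near-identical copies cannot be counted as separate evidence. H2-T9 was also called, as the 1 edgeR call among 14 tested genes of the wider class I list; DESeq2 called 2, H2-T9 and Psme1, and limma-voom 0, with 5 lower and 0 higher in edgeR and in limma-voom without adjustment.

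The classical heavy chains H2-D1 and H2-K1 were not called by edgeR. H2-D1 had 13.3, 12.3, 18.2, 12.1 and 15.6 CPM in the controls and 4.81 and 9.93 in the mutants, with no overlap but a wide gap between the mutants (log2 fold change -0.95, SE 0.26, edgeR adjusted p = 0.103). DESeq2 called H2-D1 lower (adjusted p = 0.0105), and leaving out mutant replicate 1 gave a log2 fold change of -0.53, leaving out mutant replicate 2 gave -1.56. The values of H2-K1 were 21.0, 17.7, 17.4, 19.7 and 22.1 CPM against 19.6 and 14.3, overlapping (-0.21, SE 0.15), and without mutant replicate 2 its log2 fold change was 0.01. These heavy chains are similar in sequence and vary between strains, and the labels give no strain. B2m, the invariant light chain of all class I molecules, had 150, 140, 142, 126 and 110 CPM in the controls and 111 and 89.3 in the mutants; control replicate 5 and mutant replicate 1 were nearly equal (-0.41, SE 0.13, adjusted p = 0.142 in edgeR).

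Peptide supply showed the same direction without a call. Tap1, a subunit of the peptide transporter, had 1.98, 2.23, 2.23, 1.93 and 2.16 CPM in the controls and 0.991 and 1.36 in the mutants. The controls of Tap1 lay within a 1.16-fold range and above both mutants (log2 fold change -0.83, SE 0.25, edgeR adjusted p = 0.122). Tap2, its partner, had 1.16, 0.902, 0.999, 1.58 and 2.32 CPM against 0.644 and 0.613, and Psmb8, an immunoproteasome subunit, 0.990, 1.42, 2.32, 1.48 and 2.16 against 0.842 and 0.569. In both, the lowest control was near the mutants and control replicate 5 was among the highest. Psmb10, also of the immunoproteasome, had 39.1, 31.1, 42.2, 42.6 and 37.2 CPM in the controls and 37.0 and 28.4 in the mutants (-0.24, SE 0.14). Tapbp, which bridges TAP to the heavy chain, had 33.2, 37.9, 34.7, 29.5 and 41.5 CPM against 28.2 and 37.9. The Tapbp mutants thus lay on both sides of most controls, and its log2 fold change of -0.10 turned to 0.10 without mutant replicate 1.

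The 9 members of the MHC region lie between 33919478 and 36042742 on chromosome 17 (RefSeq, GRCm38.p6) and had a median log2 fold change of -0.89. The 84 other tested genes of that interval had a median of -0.04, with 49 negative and 0 called by edgeR (11 lower and 4 higher at an unadjusted p under 0.05). H2-T9 was not among them, having no position in the RefSeq table used. The remaining members lay on other chromosomes, with 9 of them on chromosome 11.

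Per kilobase of exon (union of GENCODE exons), the level in controls ranged from 156 CPM per kb for B2m to 0.181 for Psmb9. B2m was followed by Ifitm3 at 44.0, Bst2 at 30.3, Psmb10 at 22.5, Isg15 at 11.0 and Tapbp at 9.75 CPM per kb. On this scale the called genes ranked 15 (Lgals3bp), 18 (Uba7), 26 (H2-T22) and 40 (Iigp1) of 49. They stood at 4.0, 3.74, 2.13 and 0.957 CPM per kb in controls, respectively. In CPM, neighbours in this order such as Ifitm3 (29.8 ± 8.36) and Bst2 (27.3 ± 8.42) differed by less than their SD.

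Libraries differed in the members beyond genotype. Averaged over the 49 members, log2 CPM stood at 3.11, 3.33, 3.29, 2.81 and 2.85 for the controls, in the order of their replicate numbers, and at 2.63 and 2.24 for the mutants. Control replicate 2 held the highest value of 20 members and control replicate 3 that of 14, while mutant replicate 2 held the lowest value of 34 and mutant replicate 1 that of 8. Mutant replicate 2 also held the most extreme values over all genes, in both directions, with the highest value of 3524 and the lowest of 3321 of 14691 genes. For 33 of 49 members (67.3%) the range among the controls was wider than the log2 fold change, as it was for 85.3% of all genes tested.

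The classes did not follow the libraries alike. Antiviral genes averaged 3.67 and 3.53 log2 CPM in control replicates 2 and 3, 2.79 and 2.81 in control replicates 4 and 5, and 2.85 and 2.11 in the mutants, so that mutant replicate 1 was level with those last controls. Antigen presentation genes averaged 2.83, 2.87, 2.99, 2.89 and 3.03 in the controls and 2.31 and 2.25 in the mutants, with both mutants equally low. GTPases averaged 2.24 and 1.92 in the mutants against a lowest control of 2.43, but without Iigp1 mutant replicate 1 stood at 2.55, inside the control range of 2.47 to 3.14. Regulators averaged 2.81 and 2.53 against a lowest control of 2.93, but without Zbp1 mutant replicate 1 and control replicate 4 both stood at 3.18.

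**Figure D5:**
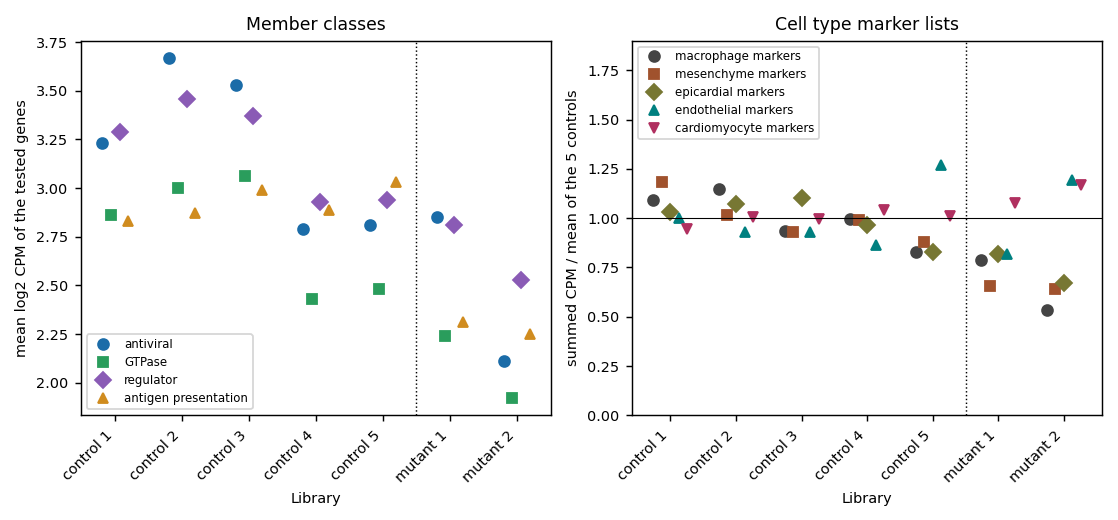
Left, mean log2 CPM of each member class in each library; right, summed CPM of marker lists divided by the mean of the 5 controls. Antiviral genes are high in control replicates 2 and 3 while antigen presentation genes are level across controls, and the macrophage and mesenchyme sums of both libraries labelled mutant lie below every control.

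Markers of some other cell types were lower in the libraries labelled mutant, as the members were, and those of others were not. In bulk tissue, fewer cells of a type and less RNA per cell cannot be told apart. Macrophage markers, 19 of 20 listed genes tested, were all negative (median log2 fold change -0.70), with 3 called lower by edgeR, C1qa, C1qc and Lyz2, and none at 0 in every library. Their summed level was 347, 365, 297, 316 and 263 CPM in the controls and 250 and 170 in the mutants. Mesenchyme markers had 7 of 12 called lower (median -0.97), among them the collagen gene Col1a1 and Postn, and summed to between 5450 and 7320 CPM in controls and to 4060 and 3960 in the mutants. Epicardial markers, 1 of 10 called lower, summed to between 498 and 664 CPM in controls and to 492 and 403 in the mutants, and cardiomyocyte markers, 1 of 16 called, higher, to between 48800 and 53800 and to 55600 and 60300.

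Endothelial markers, 17 tested and 0 called by edgeR, DESeq2 or limma-voom (2 lower and 0 higher at an unadjusted edgeR p under 0.05), had a median log2 fold change of -0.04 and summed to between 1090 and 1600 CPM in controls and to 1030 and 1500 in the mutants. Erythroid markers, 12 tested and 0 called by any of these tools (0 without adjustment in edgeR), summed to between 5990 and 12200 CPM in controls and to 7090 and 7810 in the mutants.

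The part of these marker differences in the members' values was not tested. Lymphocyte and natural killer cell markers were close to 0, at 2.69 to 5.35 CPM in sum over 15 genes in any library, with Gzma at 0 in all. Neutrophil and plasmacytoid dendritic cell markers summed to between 1.28 and 5.35 CPM. Class II genes, which mark antigen-presenting cells, gave 0 edgeR calls among 6 tested, with 2 lower and 0 higher without adjustment. Of them H2-Ab1 had 3.05 ± 0.819 CPM in controls and 0.149 and 1.40 in the mutants, and DESeq2 called it lower. H2-DMa stood at 1.64 ± 0.769 and 2.37 ± 0.548 CPM and H2-Eb1 at 1.12 ± 0.186 and 0.905 ± 0.019.

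Interferon-induced genes outside the members were listed from general knowledge, with 52 of 70 tested. Of these 39 had a negative log2 fold change (median -0.27), and edgeR and limma-voom called 0. In edgeR 16 were lower and 3 higher without adjustment, and DESeq2 called 7 lower. Ifi27l2a, a mitochondrial protein of the ISG12 family, had the lowest adjusted p, with 5.64, 6.22, 4.50, 2.87 and 3.26 CPM in the controls and 1.64 and 0.525 in the mutants (log2 fold change -2.08, SE 0.45, edgeR adjusted p = 0.0543). Ifitm2, beside Ifitm3, went from 104 ± 4.57 to 85.4 ± 3.14 CPM (-0.29, SE 0.08, adjusted p = 0.105). In the wider class I list Psme1, a proteasome activator subunit that interferon gamma induces, went from 160 ± 5.97 to 133 ± 1.74 CPM (-0.27, SE 0.08, adjusted p = 0.117 in edgeR), while the chaperones Calr, Canx and Pdia3 stood at 743 ± 59.6 and 724 ± 5.92, 549 ± 19.2 and 586 ± 47.0, and 588 ± 35.3 and 536 ± 11.7 CPM. The abundant Stat3 and Pnpt1 of the interferon-induced list differed by less than their SD, at 69.8 ± 4.07 and 69.4 ± 8.75 CPM and at 69.6 ± 11.6 and 68.1 ± 9.53.

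Genes outside all lists were ranked by how closely they followed the members' mean log2 CPM over the 7 libraries. Each gene's values come from the same libraries and the same genotype groups as the members' mean. Among 11035 genes the closest were Leprel4 (Pearson r = 0.992), Prss23 (0.981), Lyz1 (0.979), Thsd7b (0.978) and Rab34 (0.974). Cirh1a (0.968), Rgs10 (0.968), Clip3 (0.961) and Evc (0.960) closed the first 10. Tbx2, a T-box gene, was among them at 0.971 over 7 libraries, with 13.7, 14.5, 14.6, 9.06 and 11.4 CPM in the controls and 7.28 and 5.12 in the mutants. With so many genes and 7 points, such values are a description of likeness in these libraries.

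In the authors' deposited table of 668 significant genes, 9 of the 49 members were listed, all lower. All 668 were among the 14691 genes tested here, and the share of them that was lower is not given here. These were Iigp1, Lgals3bp, Oasl2, Ifitm3, Gbp3, H2-D1, H2-T22, Bst2 and Uba7. In the authors' deposited table the log fold changes ran from -2.26 for Iigp1 to -0.76 for Uba7, and the false discovery rates from 1.86e-07 for Iigp1 to 0.0266 for Bst2. All 4 members called here are among the 9, and the others had edgeR adjusted p-values here between 0.0957 (Ifitm3) and 0.196 (Bst2).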

How the data were processed

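The first deposited table holds the authors' unnormalized read counts, whole numbers for each gene symbol. The submitters' processing notes name the mm10 build, TopHat2 2.1.1, featureCounts and edgeR 3.16.5. Not given in the sources used here are the annotation, the strand setting and the handling of multiply matching reads, so overlapping and antisense genes cannot be told apart. The second deposited table gives the authors' log fold change, with a p-value and false discovery rate of at most 0.05. It was taken as log2 because all values of this deposited table lay within 0.1 of those computed here.

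Members and gene lists were chosen with earlier results of these data known. Counts were filtered with filterByExpr (minimum count 10, minimum total 15), scaled by TMM and tested with glmQLFit and glmQLFTest, robust, in edgeR 4.0.16 (R 4.3.3). The SE is the fold change divided by the square root of F. The common biological coefficient of variation was 0.128. Mean log2 CPM used a prior count of 2. Values in every library are given, per class, for the members called, the 3 of highest mean CPM and the 3 of widest range over libraries (mean of at least 1 CPM), and for some members chosen after their values were seen. Of other lists the rule took receptor and kinase genes (1 is not reported here), genes called, the 3 of highest mean CPM, and the 10 genes of at least 5 CPM that followed the members best; Ifi204, Psme1 and Ifi27l2a were chosen after their values were seen. No library was a copy of another: chi-square per degree of freedom between libraries was 9.99 to 31.9. Alternatives were DESeq2 1.42.0, its size factors, limma-voom (limma 3.58.1), library totals, other filters, each library left out and the replicate number as a block. An Xist covariate, the 5 libraries above 10 CPM of Xist, and the removal of 2 libraries were chosen after seeing the data. Promoters came from RefSeq, GRCm38.p6.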

Additional observations from a re-analysis of the deposited data

How the results depend on the processing

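The 4 members called lower were also called with DESeq2 size factors, library totals alone, no low count filter and a minimum of 10 counts in 2 libraries. DESeq2 called 10 members and 786 genes, limma-voom 0 members (22 lower and 1 higher at an unadjusted p under 0.05) and 114 genes. Leaving out 1 library gave 0 to 6 members and 12 to 275 genes, with the lowest of both counts without mutant replicate 2. The members' median was then -0.73 to -0.35, again nearest to 0 without mutant replicate 2. The number of members outside the control range was 19 to 42 of 49, the highest without mutant replicate 1, while the share of all genes outside it went from 20.2% with all libraries to 53.4% without mutant replicate 1. With Xist as a covariate 1 member, Iigp1, and 60 genes were called, in the 5 libraries with high Xist 1 member and 66 genes, and without control replicate 5 and mutant replicate 2 together 0 members and 52 genes. The numbers 1 and 2 are shared by both groups, and the deviations of same-numbered libraries had correlations of 0.078 and 0.012. With 2 mutants, their deviations from the group mean mirror each other, so these values cannot exclude pairing. The labels name no pairs, and the libraries were not treated as pairs. A fit with the replicate number as a block called 12 members and 811 genes. Control replicates 3, 4 and 5 have no mutant of the same number. The genotype difference in that fit therefore rests on replicates 1 and 2 alone and not on all 7 libraries. The causes of these shifts were not tested.

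No called member changed sign in any alternative. Members that were not called changed sign as follows. Leaving out 1 library gave log2 fold changes of -0.61 to 0.24 for Samd9l, -0.24 to 0.14 for Stat2, -0.08 to 0.04 for Igtp, -0.66 to 0.17 for Irgm1, -0.45 to 0.01 for H2-K1, -0.32 to 0.10 for Tapbp and -0.06 to 0.16 for Trim25. The Xist covariate gave 0.10 for Samd9l, 0.0093 for Stat2 and 0.13 for Igtp, and the 5 libraries 0.10, 0.01 and 0.14. Without the 2 libraries together the values were 0.11 for Samd9l, 0.09 for Stat2, 0.10 for Irgm1, 0.06 for H2-K1 and -0.05 for Trim25, and with the replicate block Trim25 stood at -0.06. Each mutant mean rests on 2 libraries, while the SE come from a fit over all 7 libraries, 5 of them controls. The largest SE among the members were those of Ifit1 (0.71) and Zbp1 (0.63).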
